A study of Mus musculus with 6 samples.

Results

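This section describes 10 genes of vascular guidance signalling in sorted cells of the mouse heart: the class 3 semaphorins Sema3a, Sema3c, Sema3d, Sema3f and Sema3g, the ligands Slit2 and Slit3, and the receptors Robo4, Unc5b and Plxnd1. They were chosen by symbol, with earlier results of these data known. They are 10 of the 18194 genes that the array annotation names with a single symbol. Together they have 19 probe sets, the groups of short probes with which an Affymetrix array reads a transcript. The brightest probe set on average stands for each gene, 6 genes have further probe sets, and Sema3g, Slit3, Robo4 and Plxnd1 have 1 each. The samples are 6 arrays of sorted left ventricular cells. The mice were male and of the black swiss strain, with ages of 8 to 10 weeks. According to the labels transverse aortic constriction (TAC), which narrows the aorta and loads the ventricle with pressure, was done in 3 mice and sham surgery in another 3, and cells were taken 1 week later. The groups are Tie2cre lineage traced fibroblasts, fibroblasts of the Tie2cre non-lineage, and endothelial cells, each at sham and after TAC, with 1 array per group and no replicate. Tie2cre is a Cre recombinase under the Tek promoter (Tek, or Tie2, is an endothelial receptor gene), which is also active in some blood cells, and no other allele is named in the labels. The labels do not say whether the 3 mice of a surgery were pooled or whether the populations came from the same hearts.

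Guidance cues were first described in growing axons, and blood vessels use the same families. Secreted class 3 semaphorins bind neuropilins, which signal together with plexins, and mostly repel the cells that receive them. Slits bind Robo receptors, netrins bind the Dcc and Unc5 families, and endothelial cells are known to carry Robo4, Unc5b and Plxnd1. Robo4 is a short Robo receptor best known for stabilising vessel walls, Unc5b is a repulsive netrin receptor, and Plxnd1 receives Sema3e directly and other class 3 semaphorins through neuropilins.

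All levels are log2 of the intensity, and a difference of 1 on this scale is 2-fold. The array medians lay between 6.74 and 6.85, so a level below about 6.8 is in the dimmer part of the array. The sorted cells carried the markers of their labels. The 10 fibroblast markers had medians of 12.99 to 13.15 on the fibroblast arrays, and the 10 endothelial markers had medians of 13.17 and 13.52 on the endothelial arrays. The endothelial TAC array also carried fibroblast transcripts: the fibroblast markers summed to 5447 intensity units on the endothelial sham array and to 35429 on the endothelial TAC array, against 101914 to 105760 on the fibroblast arrays. Between these arrays 8 of the 10 markers were at least 2-fold apart, all higher after TAC, with a median difference of 2.68. None of the fibroblast markers was at or near the bottom of the scale on the endothelial arrays, where the lowest, Islr at sham, read 6.24. Tek, whose promoter drives the Cre, read 11.76 and 10.70 in traced and 11.91 and 11.14 in untraced fibroblasts. On the fibroblast arrays the 10 endothelial markers summed to 8865 and 8895 at sham and to 6314 and 6440 after TAC. These sums rest mostly on Tek and on Eng, which read 11.99 and 11.85 in traced and 11.78 and 11.45 in untraced fibroblasts. The other endothelial markers read no more than 8.58 there (Erg, traced TAC). The untraced TAC array had 18S ribosomal RNA at a median of 11.30 against 14.16 to 14.75 on the other arrays, and the hybridisation spike-ins read 12.48 and 12.66 on the endothelial arrays against 11.34 to 12.07 on the fibroblast arrays. In bulk samples like these, fewer cells of a type and less RNA per cell cannot be told apart.

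The first comparison asks which of the guidance genes belong to fibroblasts and which to endothelial cells. Sema3c, Slit2 and Slit3 were higher in fibroblasts, by 57.2-fold, 22.8-fold and 20.1-fold. Robo4, Sema3g, Plxnd1 and Sema3f were higher in endothelial cells, by 110-fold, 10.3-fold, 5.71-fold and 2.24-fold. Sema3a, Sema3d and Unc5b did not pass the test. Differences were tested with limma over 12257 detected genes (above the median of an array on at least 1 of the 6 arrays). Traced and untraced arrays of a surgery were averaged first, so that each cell type had 2 values, and a call needed a Benjamini-Hochberg adjusted p under 0.05 and a 2-fold difference. Of all tested genes 11.5% were called higher in fibroblasts and 6.50% higher in endothelial cells, beside 3 and 4 of the 10 guidance genes. All 10 passed the filter, but Sema3c, Slit2 and Slit3 passed it only through fibroblast arrays, Robo4 only through endothelial arrays and Sema3a only through the endothelial TAC array, so the counts are a description. The p-values measure the spread between the 2 surgeries, which may be partly technical.

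**Figure D1:**
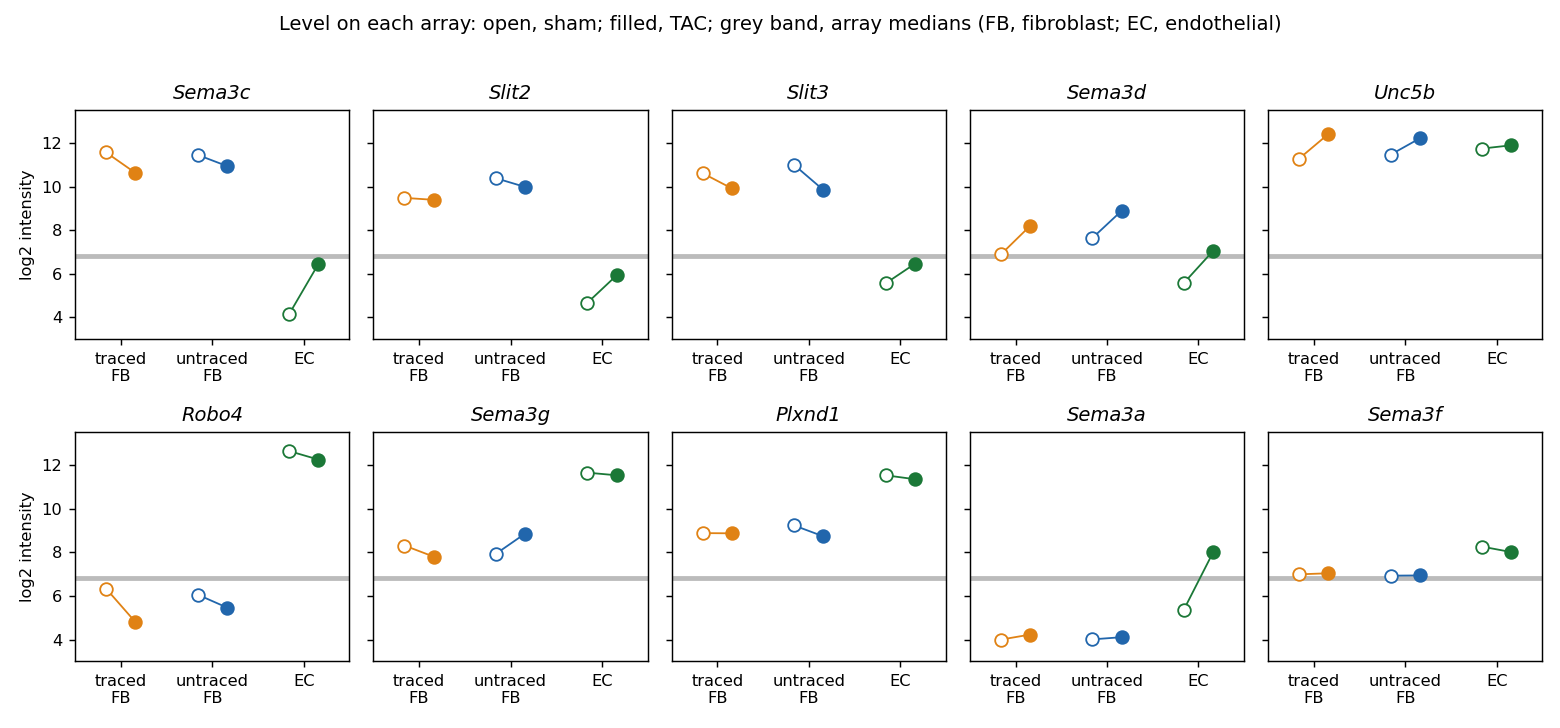
Level of the main probe set of each gene on the 6 arrays, as log2 intensity (vertical axis), for traced fibroblasts, untraced fibroblasts and endothelial cells (horizontal axis). Open points are sham arrays, filled points are TAC arrays, the line joins the 2 arrays of a population and the grey band spans the array medians, 6.74 to 6.85; Sema3c, Slit2 and Slit3 lie above the band on all 4 fibroblast arrays and below it on both endothelial arrays, and Robo4 does the reverse.

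Among the receptors, Robo4 read 6.33 and 4.80 in traced fibroblasts at sham and after TAC, 6.06 and 5.47 in untraced fibroblasts, and 12.64 and 12.25 in endothelial cells. All 4 fibroblast arrays lay below the array median and the endothelial arrays stood at percentiles 98.5 and 97.7 of their own array. The fibroblast minus endothelial difference was -6.78 (standard error, SE, 0.431, limma adjusted p = 0.00464), and it was -6.45 at sham and -7.11 after TAC. Plxnd1, the plexin of class 3 semaphorin signalling in vessels, read 8.88, 8.87, 9.23 and 8.73 on the fibroblast arrays (traced sham, traced TAC, untraced sham, untraced TAC) and 11.53 and 11.35 on the endothelial arrays. The groups did not overlap, the fibroblast levels spanned 0.50, and the difference was -2.51 (SE 0.238, limma adjusted p = 0.00817). Unlike Robo4, Plxnd1 was well above the array median in fibroblasts too, at percentiles 70.5 to 76.2.

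Unc5b, the netrin receptor, read 11.28 and 12.41 in traced fibroblasts, 11.46 and 12.21 in untraced fibroblasts, and 11.74 and 11.89 in endothelial cells. The endothelial arrays lay between the sham and the TAC fibroblast arrays. The cell types differed by 0.02 (SE 0.381, limma adjusted p = 0.972), and the 95% interval of the difference ran from -0.98 to 1.03, which just includes a 2-fold difference toward fibroblasts. The second probe set of Unc5b read 6.85 to 8.19 on the fibroblast arrays and 9.38 and 8.68 on the endothelial arrays, without overlap, a difference of -1.58 (limma adjusted p = 0.0684 in the fit of all probe sets). The probe sets of Unc5b thus gave different pictures of its cell type pattern, and neither passed.

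Among the ligands, Sema3c, a secreted semaphorin known from cardiac outflow tract development, read 11.56 and 10.62 in traced fibroblasts, 11.45 and 10.94 in untraced fibroblasts, and 4.15 and 6.45 in endothelial cells. The fibroblast arrays stood at percentiles 89.8 to 95.5 of their own array, and both endothelial arrays stood below the median. The difference was 5.84 (SE 0.825, limma adjusted p = 0.0175), with 7.35 at sham and 4.32 after TAC. Between the surgeries the endothelial level was 2.30 higher after TAC and the mean fibroblast level differed by -0.73. The second Sema3c probe set gave 3.95 (limma adjusted p = 0.00776 in the fit of all probe sets), with 9.98 to 10.94 in fibroblasts and 6.17 and 6.90 in endothelial cells.

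Slit2 and Slit3, the secreted ligands of Robo receptors, had the same arrangement. Slit2 read 9.48 and 9.39 in traced fibroblasts, 10.38 and 9.98 in untraced fibroblasts, and 4.67 and 5.93 in endothelial cells, a difference of 4.51 (SE 0.473, limma adjusted p = 0.00981). Slit3 read 10.61 and 9.91 in traced fibroblasts, 10.99 and 9.84 in untraced fibroblasts, and 5.56 and 6.46 in endothelial cells, a difference of 4.33 (SE 0.476, limma adjusted p = 0.0107). Neither reached the array median on an endothelial array. The other probe sets of Slit2 were dim on all 6 arrays, at 5.47 to 6.27 and 4.92 to 6.09 in fibroblasts and at 3.66 to 4.32 in endothelial cells. They did not enter the fit, and their differences had the same sign (1.70 and 1.58).

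Sema3g, a semaphorin known from arterial endothelium, read 8.31 and 7.80 in traced fibroblasts, 7.93 and 8.86 in untraced fibroblasts, and 11.65 and 11.53 in endothelial cells. The endothelial arrays agreed closely, the fibroblast arrays spread more widely, and the difference was -3.36 (SE 0.229, limma adjusted p = 0.00492). Traced and untraced arrays were averaged before the fit, so this standard error leaves out the spread between them. Sema3f, which signals through neuropilin 2, read 6.93 to 7.04 on the 4 fibroblast arrays and 8.26 and 8.01 on the endothelial arrays with its main probe set, a difference of -1.16 (SE 0.230, limma adjusted p = 0.0349). This call was lost once the endothelial sham array was left out (-1.04, limma adjusted p = 0.0917, with 0.00164 to 0.0917 over its 17 alternatives). The main probe set has a suffix that marks possible cross-hybridisation. The other probe sets of Sema3f differed more, by -2.11 (limma adjusted p = 0.0162 in the fit of all probe sets) and by -4.0 (limma adjusted p = 0.00749), with fibroblast levels of 6.31 to 6.70 and 5.51 to 5.74 and endothelial levels of 8.22 and 8.92, and 9.03 and 10.17. All 3 probe sets placed Sema3f higher in endothelial cells, by amounts from 2.24-fold upward.

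Sema3a, the founding repulsive semaphorin, was dim in fibroblasts, with levels from 4.0 on the traced sham array to 4.23 on the traced TAC array (4.01 and 4.11 in untraced cells), and read 5.37 and 8.00 in endothelial cells at sham and after TAC. The groups did not overlap, which was true of 37.8% of tested genes with fibroblasts above and 19.9% with fibroblasts below. The difference of -2.60 had a standard error of 0.896 and did not pass (limma adjusted p = 0.116, 95% interval -4.96 to -0.23), since the endothelial arrays lay 2.63 apart. It passed in 4 of its 16 alternatives (adjusted p 0.0194 to 0.148 over all of them), among them the fits with surgery as a block (0.0216) and without the endothelial sham array (0.0227). Sema3d, which acts in coronary vein and lymphatic patterning, read 6.89 and 8.20 in traced fibroblasts, 7.64 and 8.89 in untraced fibroblasts, and 5.58 and 7.05 in endothelial cells. The endothelial TAC array lay above the traced sham array, so the groups overlapped. At each surgery Sema3d was higher in fibroblasts, by 1.68 at sham and 1.49 after TAC, yet the difference of 1.59 did not pass (standard error 0.678, limma adjusted p = 0.175, 95% interval -0.20 to 3.38). With surgery as a block it did (limma adjusted p = 0.00613, against 0.00613 to 0.458 over its 17 alternatives).

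**Figure D2:**
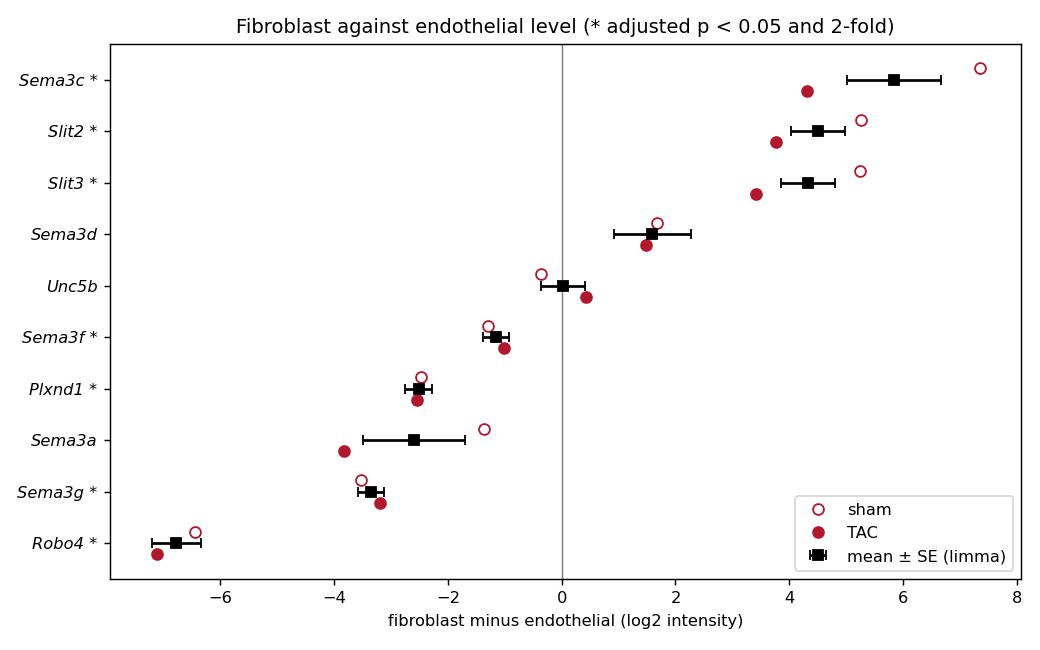
Fibroblast minus endothelial difference of each gene in log2 intensity (horizontal axis), with the limma estimate and its standard error as a black square with bar, the sham value as an open and the TAC value as a filled red point. Stars mark the 7 genes that passed; the values run from -6.78 for Robo4 to 5.84 for Sema3c, and the sham and TAC values of Sema3c (7.35 and 4.32) and Sema3a (-1.37 and -3.82) lie far apart.

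The start regions of the genes farthest apart between the cell types, and of the next called gene on each side, show how differently built their promoters are. The sequences are from RefSeq (GRCm38.p6), on the coding strand, from 250 bases before the transcription start to 50 bases after it. Capitals mark matches on either strand to the motifs searched: the ETS motif CAGGAAG, its variant for the same factor family CCGGAAG, the SP and KLF factor motif GGGCGG, the GATA factor motif AGATAA, the AP-1 motif TGANTCA, the TEAD factor motif CATTCC, the E-box element CAGCTG and the TATA box element TATAAA. No matches overlapped in the regions shown. Robo4 lies at chr9:37401722-37402021 (plus strand), Sema3g at chr14:31217623-31217922 (plus), Sema3c at chr5:17574566-17574865 (plus) and Slit2 at chr5:47982905-47983204 (plus).
Robo4: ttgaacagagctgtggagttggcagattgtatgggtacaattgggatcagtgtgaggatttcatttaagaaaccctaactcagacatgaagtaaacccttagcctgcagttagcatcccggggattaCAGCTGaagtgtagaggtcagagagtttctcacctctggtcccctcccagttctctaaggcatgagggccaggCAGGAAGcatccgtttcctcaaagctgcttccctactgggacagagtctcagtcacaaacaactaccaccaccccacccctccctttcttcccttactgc
Sema3g: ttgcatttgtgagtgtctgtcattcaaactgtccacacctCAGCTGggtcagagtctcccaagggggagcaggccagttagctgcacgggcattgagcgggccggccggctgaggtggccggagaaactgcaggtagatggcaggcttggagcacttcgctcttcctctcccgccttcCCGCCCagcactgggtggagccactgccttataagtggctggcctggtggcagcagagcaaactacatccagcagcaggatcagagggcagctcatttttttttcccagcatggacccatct
Sema3c: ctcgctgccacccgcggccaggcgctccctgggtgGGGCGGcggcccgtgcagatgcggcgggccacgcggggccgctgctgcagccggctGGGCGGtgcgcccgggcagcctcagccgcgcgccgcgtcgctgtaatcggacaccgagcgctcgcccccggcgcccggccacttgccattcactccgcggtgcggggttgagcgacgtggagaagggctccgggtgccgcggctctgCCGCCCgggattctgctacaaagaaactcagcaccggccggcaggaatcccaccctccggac
Slit2: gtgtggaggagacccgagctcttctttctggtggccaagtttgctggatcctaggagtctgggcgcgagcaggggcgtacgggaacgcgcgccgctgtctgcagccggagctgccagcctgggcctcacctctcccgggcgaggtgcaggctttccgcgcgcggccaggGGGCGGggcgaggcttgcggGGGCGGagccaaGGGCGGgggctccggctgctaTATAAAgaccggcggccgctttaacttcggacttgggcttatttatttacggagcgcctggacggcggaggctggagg

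Of the 10 genes 9 matched an entry in this table, each with 1 start region. The Robo4 region held 50.3% G and C, at percentile 40.5 of the 32851 start regions in the table, and 2 CpG pairs, at percentile 14.1. The motif CAGGAAG, found in 13.3% of all start regions, matched once in it with its first base at position -50, and the E-box, found in 16.3%, matched once at position -123. The regions of the fibroblast genes were rich in CpG: Sema3c held 42 CpG pairs, Slit3 41 and Slit2 30, against a median of 7 over all regions. GGGCGG, found in 35.7% of all regions, matched 3 times in Sema3c, 3 times in Slit2 and 6 times in Slit3, where a pair of matches overlaps. Slit2 also held the TATA box letters (13.6% of all regions), with the first base at position -28 from the start. CpG content did not follow the cell type through the whole group, since Plxnd1, higher in endothelial cells, held 23 CpG pairs and 2 GGGCGG matches, and Unc5b, not called either way, held 36 and 3. Plxnd1 also held 1 TEAD motif match (14.7% of all regions). Sema3g, with 8 CpG pairs, held 1 match of the SP and KLF motif and 1 of the E-box. Sema3a and Sema3d held 2 and 8 CpG pairs and none of the searched motifs. The remaining motifs, the ETS variant, GATA and AP-1, are held by 8.86%, 11.2% and 7.81% of all regions and matched in none of the 9. These are matches of letters in 300 bases and no evidence of binding. By the same table Sema3a, Sema3c, Sema3d and Slit2 start on chromosome 5.

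The second comparison asks how the guidance genes of fibroblasts differed after TAC. Sema3d was higher after TAC in both fibroblast populations, by 2.48-fold in traced and 2.38-fold in untraced cells. Unc5b was 2.20-fold and 1.68-fold higher, while Slit3 was 1.63-fold and 2.22-fold lower and Sema3c 1.93-fold and 1.42-fold lower. No difference between surgeries was tested, since a population has a single array for each surgery. Among 11623 genes detected on the fibroblast arrays, 4.33% stood 2-fold or more above sham in both populations and 1.79% stood that far below. Of the 8 guidance genes detected there, 1 (Sema3d) and 0 met these marks, and Sema3a and Robo4 were below the median on all fibroblast arrays.

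Sema3d differed by 1.31 in traced and 1.25 in untraced fibroblasts, from 6.89 to 8.20 and from 7.64 to 8.89. Its second probe set gave 1.64 and 0.82, so both probe sets had higher levels after TAC in both populations. At sham, Sema3d stood close to the array median in traced cells (percentile 50.9), and after TAC it stood at percentiles 64.7 and 72.3 in traced and untraced cells. Unc5b differed by 1.14 and 0.75, from 11.28 to 12.41 and from 11.46 to 12.21, and its second, dimmer probe set by 1.33 and 0.58. At a 1.5-fold mark, which 8.90% of genes met upward, both Sema3d and Unc5b counted.

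On the lower side, Slit3 differed by -0.70 and -1.15, from 10.61 to 9.91 and from 10.99 to 9.84. Alone among the 8 it was at least 1.5-fold lower in both populations, a mark that 4.86% of genes met. Sema3c differed by -0.94 and -0.51, and its second probe set by -0.96 and -0.81, which places both sham arrays above both TAC arrays on each probe set. Slit2 differed less, by -0.09 and -0.40, and its dim probe sets gave both signs. Sema3f, by its main probe set, and Plxnd1 stayed within 0.05 of 0 in traced cells, with -0.50 for Plxnd1 in untraced cells. The other Sema3f probe sets gave -0.29 and 0.02 in traced cells and -0.12 and 0.12 in untraced cells. Sema3g went opposite ways, at -0.51 in traced and 0.93 in untraced cells.

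Robo4 on the fibroblast arrays was -1.54 after TAC in traced and -0.59 in untraced cells, at levels of 4.80 to 6.33 that lie below the array median. The 10 endothelial markers differed in the same direction there, with medians of -0.70 and -0.50, where Erg alone was over 2-fold higher in both populations and 0 markers were 2-fold lower in both. The part of endothelial transcripts in the fibroblast samples in this difference was not tested. The 7 mural cell markers, whose cells are also known to make guidance ligands, had medians of -1.07 and -1.49, with 4 at least 2-fold lower in both populations, and summed to 5047 and 5720 at sham and 3257 and 2767 after TAC. None of these markers was below the median on all arrays, and their part in the lower Slit3 and Sema3c was not tested either. The 4 proliferation markers had medians of 3.37 and 3.65. Without the untraced TAC array, with its low 18S reading, the traced values stand alone: Sema3d at 1.31 and Unc5b at 1.14 were then at least 2-fold higher (2 genes), and Slit3 at -0.70 was not 2-fold lower.

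**Figure D3:**
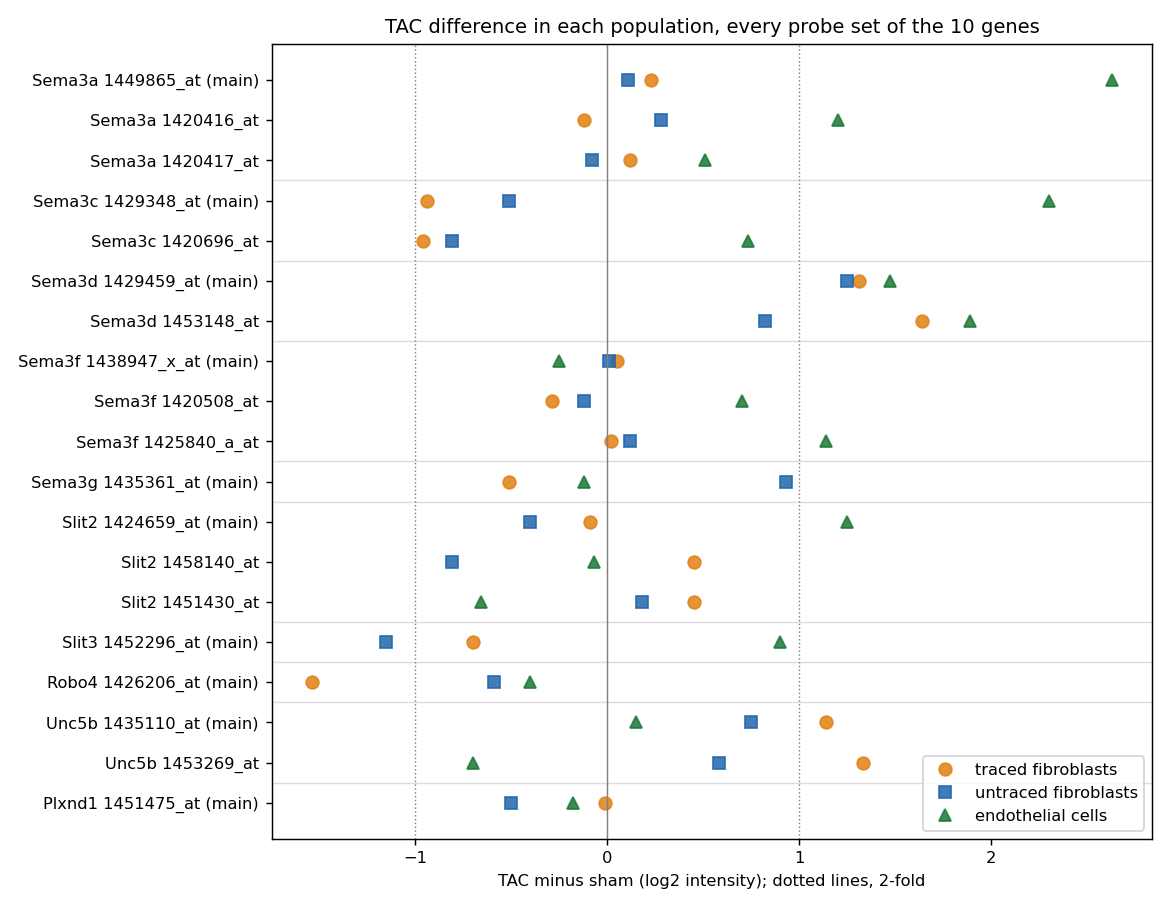
TAC minus sham difference in log2 intensity (horizontal axis) for every probe set of the 10 genes (vertical axis), with orange circles for traced fibroblasts, blue squares for untraced fibroblasts and green triangles for endothelial cells; each point is 1 array minus 1 array. Both Sema3d probe sets lie to the right of 0 in all 3 populations, and both Sema3c probe sets lie left of 0 in fibroblasts and right of 0 in endothelial cells.

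The third comparison asks the same of the endothelial cells. In them Sema3a stood 6.19-fold above sham after TAC, and Sema3d 2.77-fold above. The receptors and the endothelial semaphorins were closer to sham: Robo4 differed by -0.40, Plxnd1 by -0.18, Sema3g by -0.12, Sema3f by -0.25 and Unc5b by 0.15. The other Sema3f probe sets gave 0.70 and 1.14 and their mean with the main one 0.53, so the sign of Sema3f depended on the probe set. Among 11157 genes detected on the endothelial arrays, 10.9% were at least 2-fold higher after TAC and 1.83% at least 2-fold lower. Of the 7 guidance genes detected there, 2 were at least 2-fold higher and 0 lower. Both of the higher genes, Sema3a and Sema3d, passed this filter only through the TAC array, where they were higher. The count is therefore a description. The median difference of all detected genes was 0.18. Each value is 1 array against 1 and was not tested.

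Sema3a read 5.37 at sham and 8.00 after TAC with its main probe set, 5.38 and 6.57 with the second, and 4.77 and 5.28 with the third. The 3 probe sets gave differences of 2.63, 1.20 and 0.51, all upward and of quite different size, and the mean of the probe sets gave 1.45. On the 4 fibroblast arrays the main probe set read no more than 4.23, which is below both endothelial arrays. The part of transcripts from other cells in the Sema3a difference was not tested.

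Sema3d read 5.58 and 7.05, and 5.92 and 7.81 with its second probe set, differences of 1.47 and 1.89. Here the fibroblast arrays were higher still after TAC, at 8.20 and 8.89. Sema3c differed by 2.30, Slit2 by 1.25 and Slit3 by 0.90 in endothelial cells, all 3 below the array median on both arrays and therefore not counted. Without the filter 4 of the 10 genes were at least 2-fold higher, and with a filter at the upper quartile 0 were. The shares of all genes under these filters were not computed, so these counts have no background beside them. The second Sema3c probe set gave 0.73, and the dim Slit2 probe sets gave -0.07 and -0.66. Sema3c, Slit2, Slit3 and Sema3d are fibroblast-side genes in sign, and the fibroblast markers had a median difference of 2.68 on the same arrays, from 0.11 to 4.43. The part of fibroblast transcripts in the endothelial TAC sample in these 4 differences was not tested. On the same arrays the 7 mural markers differed by a median of -0.83 (summed intensity 14232 at sham and 8437 after TAC) and the 5 cardiomyocyte markers by -0.96 (6019 and 3262). The 6 macrophage markers differed by a median of 0.31 (545 and 915), and the 4 proliferation markers by 4.16 (662 and 12259). Their part was not tested either.

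By their main probe sets, Sema3c, Slit2 and Slit3 were lower after TAC in both fibroblast populations and higher in endothelial cells. This held for 15.2% of the 12257 detected genes, and the difference between the responses was not tested. The dim Slit2 probe sets did not keep this arrangement. The opposite arrangement held for Sema3f, with values close to 0, and for 8.81% of genes. Unc5b was higher after TAC in fibroblasts (0.94 on average) and nearly level in endothelial cells (0.15), where its second probe set gave -0.70.

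**Figure D4:**
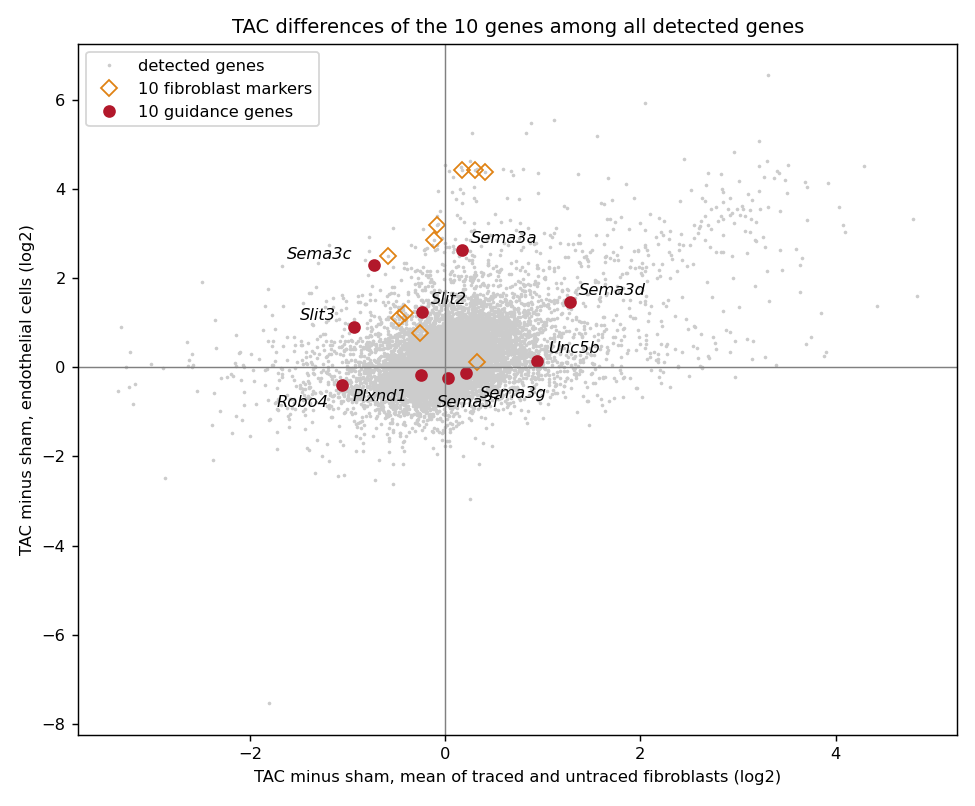
TAC minus sham difference in endothelial cells (vertical axis, log2) against the mean difference of traced and untraced fibroblasts (horizontal axis, log2) for the 12257 detected genes (grey), with 10 fibroblast markers as orange diamonds and the 10 guidance genes in red. Sema3c, Slit2 and Slit3 lie in the upper left with part of the fibroblast markers, Sema3d lies in the upper right, and Robo4, Plxnd1, Sema3f, Sema3g and Unc5b lie within 0.40 of 0 on the vertical axis.

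The fourth comparison sets traced against untraced fibroblasts. None of the guidance genes was at least 2-fold different in the same direction at both surgeries, which 0.0344% of the 11623 genes were in each direction. At sham alone 0 of the 8 detected were 2-fold higher (0.370% of genes) or lower (0.404%) in traced cells. Slit2 was lower in traced cells at both surgeries, at 9.48 against 10.38 at sham and 9.39 against 9.98 after TAC, differences of -0.90 and -0.59. Sema3d was lower as well, at 6.89 against 7.64 and 8.20 against 8.89, differences of -0.75 and -0.69. At a 1.5-fold mark these 2 counted as lower in traced cells at both surgeries, which 0.344% of all genes did, and 0 counted as higher, which 0.361% did. The second Sema3d probe set gave 6.40 against 7.34 at sham and 8.04 against 8.16 after TAC, again lower in traced cells. One dim Slit2 probe set read 5.62 against 6.27 and 6.07 against 5.47, so for Slit2 the order was not kept on every probe set.

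Sema3g was higher in traced cells at sham (0.38) and lower after TAC (-1.06), and it was the 1 guidance gene at least 2-fold lower in traced cells after TAC (0.112% of genes), where 0 were higher (0.361%). Its TAC difference was lower in traced than in untraced cells (-1.45), and 0.611% of genes had a TAC difference at least 2-fold lower in traced than in untraced cells. Sema3g has 1 probe set, and the untraced TAC array, its highest fibroblast array (8.86), is the array with the low 18S level, whose part in this difference was not tested. The remaining lineage differences lay between -0.68 (Robo4 after TAC, below the array median) and 0.27.

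The wider family gives the partners of these genes. Of 62 other guidance genes on the array, also chosen with earlier results of these data known, 49 were tested. The test called 15 of them toward fibroblasts, 7 toward endothelial cells and 27 not at all, beside 11.5% and 6.50% of all tested genes, with a median difference of 0.41 against 0.22 over all tested genes. Among those on the fibroblast side, Sema3b, Sema4g, Sema5a, Rgma, Plxna3, Plxnc1, Unc5c and Srgap3 passed the filter only through fibroblast arrays. Their endothelial levels lie below the array median, so their folds rest on dim values. Without the endothelial sham array the counts were 9 and 3. Of 18 ligands 7 were higher in fibroblasts: the neuronal repulsive guidance molecule gene Rgma (12.9-fold), netrins Ntn1 (9.27-fold) and Ntn4 (9.0-fold), Sema5a (8.76-fold), Sema3b (6.90-fold), Sema4g (2.55-fold) and Rgmb (2.51-fold). The membrane semaphorins Sema6a (4.92-fold) and Sema6b (3.56-fold) were higher in endothelial cells. Ntn1 and Ntn4 thus lay on the fibroblast side with Sema3c, Slit2 and Slit3 (limma adjusted p = 0.0165 for Ntn1 and 0.0146 for Ntn4). This did not hold for all netrins and Slits. Ntn5 (-0.07, limma adjusted p = 0.872) and Slit1 (-0.08, limma adjusted p = 0.822) were not called, and Ntn3 was not detected.

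The 17 receptors were split, 6 toward fibroblasts and 5 toward endothelial cells. The semaphorin co-receptors Nrp1 (2.78-fold) and Nrp2 (8.68-fold) and the plexins Plxna2 (5.81-fold) and Plxna4 (2.67-fold) were on the endothelial side with Plxnd1, as was the adhesion molecule gene L1cam (5.10-fold). L1cam read 4.65 to 6.92 and Plxna4 5.97 to 7.14 in fibroblasts, mostly below the array median, so their folds rest on dim values. Nrp2 read 8.91 to 9.57 in fibroblasts and 12.14 and 12.53 in endothelial cells, a difference of -3.12 (limma adjusted p = 0.00708). On the fibroblast side were the netrin receptor genes Unc5c (35.6-fold) and Neo1 (3.63-fold), Robo1 (14.4-fold), and the plexins Plxnc1 (10.8-fold), Plxnb2 (7.64-fold) and Plxna3 (2.58-fold). Robo1 and Robo4, both of the Robo family, lay on opposite sides, with Robo1 at 9.89 to 10.30 in fibroblasts and at 5.23 and 7.32 in endothelial cells (3.85, limma adjusted p = 0.0318). Unc5c read 8.62 to 9.24 in fibroblasts and 3.25 and 4.31 in endothelial cells (5.15, limma adjusted p = 0.00711), whereas Unc5b was not called. Of 14 cytoplasmic partners 2 were called toward fibroblasts, near the 11.5% of all tested genes: Srgap3 (5.75-fold), which acts below Robo receptors, and Mical1 (5.24-fold), an oxidase that acts below plexins.

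**Figure D5:**
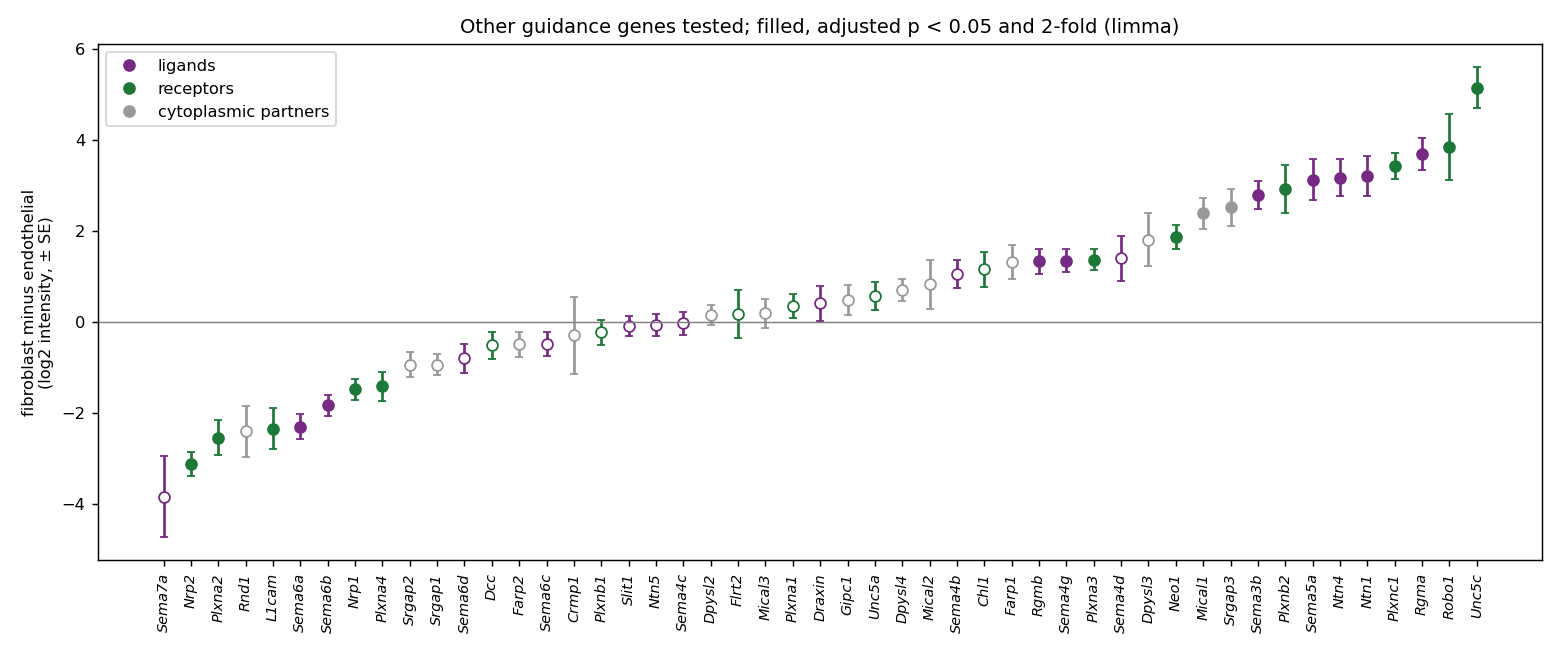
Fibroblast minus endothelial difference in log2 intensity with its limma standard error (vertical axis) for the 49 other guidance genes tested (horizontal axis, in order of the difference), with ligands in purple, receptors in green and cytoplasmic partners in grey; filled points passed. The called values run from -3.12 for Nrp2 to 5.15 for Unc5c, and Sema7a, at -3.84, is an open point.

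After TAC, Sema7a and Mical2, 2 of 47 other guidance genes detected in fibroblasts, stood at least 2-fold above sham in both populations and Sema5a, 1 of 47, as far below. Over all genes detected in fibroblasts these shares were 4.33% and 1.79%, so the counts are near the background. Sema7a, a membrane-anchored semaphorin, went from 7.25 to 9.94 in traced and from 6.89 to 9.43 in untraced fibroblasts, differences of 2.69 and 2.53, and read 12.19 and 12.23 in endothelial cells. Its cell type difference of -3.84 did not pass (limma adjusted p = 0.0503), as the fibroblast arrays were far apart by surgery. Mical2 differed by 1.51 and 1.49 in the 2 populations. Sema5a was lower, by -1.30 and -1.12, from 10.12 to 8.83 and from 9.35 to 8.24. In endothelial cells 6 of 37 were at least 2-fold higher and 0 lower, beside 10.9% and 1.83% of all genes detected there: Crmp1 (2.25), Robo1 (2.09), Dpysl3 (1.53), Flrt2 (1.41), Plxnb2 (1.40) and Rnd1 (1.31). Crmp1 (6.38 at sham) and Robo1 (5.23 at sham) passed the endothelial filter only through the TAC array, where they were higher. This count too is a description. Robo1 and Plxnb2 are called fibroblast-side genes, and the fibroblast markers differed on the same arrays as given above. The semaphorin co-receptors Nrp1 (-0.11) and Nrp2 (0.39) stood within 0.40 of sham, as did Plxnd1 and Robo4.

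The genes most like Sema3c and Robo4 over the 6 arrays were found by the root mean square distance between centred log2 profiles among detected genes. Nearest to Sema3c were the potassium channel gene Kcnt2 (distance 0.230), Kcp (0.278), the matricellular gene Smoc2 (0.287), Ms4a4d (0.294) and the extracellular matrix gene Emilin2 (0.352). They were picked for their likeness over these arrays, so a shared pattern is fixed by the choice. Nearest to Robo4 were Cd300lg (0.196), Ccm2l (0.213), Tspan13 (0.214), Gpihbp1, which anchors lipoprotein lipase on capillaries (0.255), and Rassf9 (0.281). Their fibroblast minus endothelial differences, alike by the same choice, lay between -6.90 and -6.40, beside -6.78 for Robo4.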

How the data were processed

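The deposited table holds intensity values of 45101 probe sets on 6 arrays (1 per group; 200 ng of total RNA labelled, per the labels' protocols). The authors used RMA, per the submitters' processing notes, which corrects background, normalizes between arrays and summarises probes; its version and software: not given in the sources used here. Deposited intensities run from 3.82 to 37205, so the linear scale is read from the values. RMA shrinks differences of dim probe sets and gives no detection call. No array pair was identical (0 of 15). No further normalization was applied before log2. Genes were named from the platform annotation with symbols updated by gene identifier (99.4% found). A gene is its probe set with the highest mean and counted as detected when it exceeded its array's median on at least 1 array compared.

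The cell types were tested against each other in limma 3.58.1 under R 4.3.3 (lmFit, eBayes, 2 residual degrees of freedom, Benjamini-Hochberg). On simulated data for 12257 genes the fit called 0 of 50 genes changed by a log2 of 1 and 6 of 50 at 2. It called 42 of 50 at 4, 47 of 50 at 6 and 3 unchanged genes. The simulation changed a far smaller share of genes than the 11.5% and 6.50% called in the data. Its rates therefore do not carry over directly to these data. The surgery and lineage comparisons have 1 array a side and no test. The number of arrays limits the precision. The genes and lists were chosen with earlier results of these data known. Named are the 10 genes with all their probe sets and other guidance genes that were called or at least 2-fold different after TAC. The uncalled Ntn3, Ntn5 and Slit1 and the 5 nearest genes of the extreme members are named too. Alternatives covered probe set choice, filters, scaling, an offset of 16, the design of the fit, the fold and each array left out.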

Additional observations from a re-analysis of the deposited data

Results flagged for a closer look

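For 4 genes the TAC minus sham difference of the main probe set had one sign in both fibroblast populations and the other sign in endothelial cells. Of the 12257 detected genes 15.2% were lower in both fibroblast populations and higher in endothelial cells, and 8.81% the reverse. Sema3c differed by 2.30 in endothelial cells and by -0.94 and -0.51 in traced and untraced fibroblasts. Slit2 differed by 1.25 against -0.09 and -0.40, and Slit3 by 0.90 against -0.70 and -1.15. The dim probe sets of Slit2 gave 0.45 each in traced fibroblasts, -0.81 and 0.18 in untraced fibroblasts, and -0.07 and -0.66 in endothelial cells. Sema3f differed by -0.25 against 0.05 and 0.01, all close to 0, and its other probe sets gave 0.70 and 1.14 in endothelial cells. The differences between the cell types were not tested. The endothelial values of Sema3c, Slit2 and Slit3 lie below the array median, and the fibroblast markers differed by a median of 2.68 on the same 2 arrays.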

How the results depend on the processing

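No pairing by replicate number could be fitted, since every group has 1 array and the groups share a single number. The cell types were paired within surgery instead, with surgery as a block, which called 4 guidance genes in fibroblasts and 5 in endothelial cells. The shares of all genes called, 11.5% and 6.50%, were computed for the reported fit only. Cell type counts under the block and the other alternatives thus have no background beside them. The counts of guidance genes called in the cell type comparison stayed at 3 in fibroblasts and 4 to 5 in endothelial cells when each array was left out in turn. Of the 176 cell type values of single genes under the alternatives, 170 kept their side of the threshold, 5 passed where the reported value did not (4 for Sema3a and 1 for Sema3d) and 1 no longer passed (Sema3f). No call reversed in sign. With the filter at the upper quartile 3 guidance genes were called in endothelial cells, and Sema3f, Sema3a and Sema3d were not tested there. Sema3a was not tested with the mean of all probe sets either. The 176 values leave out such settings. With each array left out, the other guidance genes higher in fibroblasts numbered 9 to 16 and those higher in endothelial cells 3 to 9, the lowest of both without the endothelial sham array, where the endothelial arm keeps 1 value whose spread is taken from the fibroblasts. Those higher in endothelial cells numbered 11 with the mean of all probe sets and 12 with all probe sets fitted singly. Guidance genes at least 2-fold higher after TAC in both fibroblast populations numbered 0 with the upper quartile filter, 2 in traced fibroblasts alone and 2 at 1.5-fold; those lower numbered 1 in untraced fibroblasts alone and 1 at 1.5-fold. In endothelial cells the count of higher genes was 1 with the mean of all probe sets, 4 without a filter and 0 with the upper quartile filter. Shares of all genes were not computed for these settings. In traced against untraced fibroblasts, 1 gene was lower after TAC alone and 2 at 1.5-fold. Quantile normalization moved the median endothelial TAC difference of all detected genes from 0.177 to 0.069. Dim levels limit the folds of Robo4, L1cam and Plxna4 in fibroblasts. In endothelial cells they limit the fold of Sema3c, Slit2, Slit3 and the other guidance genes named as passing only through fibroblast arrays.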
